A study of Mus musculus with 6 samples.

Results

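Nptxr, Nptx1 and Nptx2 are the 3 neuronal pentraxin genes, taken by symbol from the tables of gene expression of 6 libraries of mouse medial prefrontal cortex. They are 3 of 19943 genes in those tables, and all 3 passed the filter on low counts. The family was selected on measured values, the differences between isolated and control libraries in these same data, where Nptxr is lower. Those differences are therefore given for the 3 genes as a description, with no test.

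Neuronal pentraxins are synaptic proteins related to the pentraxins of blood plasma. Nptx1 and Nptx2 (also called Narp) are secreted by excitatory neurons, whereas Nptxr is anchored in the membrane. The proteins assemble into mixed complexes that cluster AMPA receptors, the main fast glutamate receptors, at excitatory synapses, including those onto parvalbumin interneurons. The metalloprotease ADAM17 can cut Nptxr free of the membrane, and Nptx2 is known as a gene that neuronal activity induces.

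The study sequenced total RNA of the medial prefrontal cortex of C57BL/6 mice, 3 libraries from control mice and 3 from mice isolated from weaning for 3 weeks, named here control 1 to 3 and isolated 1 to 3. The labels give every mouse an age of 6 weeks and the series' design text 7 weeks. The sources used here do not give sex, the housing of the controls, or whether a library is 1 animal or a pool. P-values therefore measure only the spread between these libraries, which may be technical. Depth was even, at 18226448 to 18606573 expected counts per library, an expected count being an estimate of a gene's reads in which ambiguous reads are shared out.

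The libraries differed in the levels of markers of other cell types. Markers of cortical excitatory neurons were present throughout, with Slc17a7 at 1563 to 1984 CPM (CPM is a count scaled to library size, here with TMM factors between libraries). The 15 markers of striatal projection neurons, a cell type of the neighbouring striatum, summed to 4081 CPM in control 2 and 2968 CPM in isolated 3, against 462 to 1311 CPM in the other 4 libraries. All 15 had lower means after isolation, with a median log2 difference of -0.414 and overlapping groups. The oligodendrocyte list was highest in isolated 3, at 6959 CPM for 10 genes, and lay between 2917 and 4868 CPM elsewhere. All 10 of its genes had higher means after isolation, with a median log2 difference of 0.436 and overlapping groups. The astrocyte list summed to 4503 to 4751 CPM in the controls and 4191 to 4363 CPM in the isolated libraries, and the vascular list to 366 to 406 and 329 to 356 CPM, both without overlap and with all 8 genes lower. The microglia list (303 to 333 and 289 to 309 CPM) and the upper-layer neuron list (796 to 907 and 658 to 843 CPM) overlapped, each with 7 of 8 genes lower. Of 10 deep-layer neuron markers 8 had higher means, with overlapping sums of 384 to 514 CPM in controls and 431 to 522 CPM in isolated libraries. All 5 red blood cell genes had higher means, but their sums overlapped too. These were 186 to 223 CPM in controls and 154 to 325 CPM in isolated libraries, with isolated 3 the lowest library. In bulk tissue fewer cells of a type and less RNA per cell cannot be told apart.

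The members lie on different chromosomes, each with 5 exons in the GENCODE M21 annotation of the mouse build GRCm38. In RefSeq on the same build, Nptxr (Entrez gene 73340) spans 79786351 to 79804709 on the minus strand of chromosome 15. Nptx1 (18164) spans 119538719 to 119547820 on the minus strand of chromosome 11, and Nptx2 (53324) spans 144545887 to 144557478 on the plus strand of chromosome 5. Coding sequences run to 1479 bases in Nptxr, 1296 in Nptx1 and 1287 in Nptx2. The coding bases that encode the pentraxin signature, the short motif by which the family is recognised, show how alike the genes are. They lie in exon 4 of each gene and are printed 5′ to 3′ on the coding strand, with the 24 bases of the signature in capitals between 24 bases on either side, from GENCODE transcripts at chr15:79790356-79790427, chr11:119543272-119543343 and chr5:144555315-144555386.
Nptxr: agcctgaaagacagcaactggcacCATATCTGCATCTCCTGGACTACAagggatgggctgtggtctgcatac
Nptx1: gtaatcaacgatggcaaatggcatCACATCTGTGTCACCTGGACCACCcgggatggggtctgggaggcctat
Nptx2: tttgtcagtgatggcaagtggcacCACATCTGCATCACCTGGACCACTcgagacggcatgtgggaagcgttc
Of the 24 signature bases, Nptx1 and Nptx2 share 21, Nptxr and Nptx2 share 20, and Nptxr and Nptx1 share 18. Over the aligned coding bases the identity was 68% between Nptx1 and Nptx2, 66.9% between Nptxr and Nptx2 and 64.6% between Nptxr and Nptx1. Exact matches as long as a read were not found between the members: of the 50-base windows of the Nptx1 and Nptx2 transcripts, 0 of 5168 and 0 of 2487 occurred in a transcript of another gene. The reads were 50 bases long.

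Nptxr is not separate from its neighbour. The annotated gene Npcd (neuronal pentraxin with chromo domain, Entrez gene 504193) joins the first exons of Cbx6, which encodes a Polycomb chromobox protein, to exons 2 to 4 and to part or all of exon 5 of Nptxr on the same strand. It spans 79786351 to 79834333 on chromosome 15, with the RefSeq end points of Nptxr on one side and Cbx6 on the other. The junctions into exon 2 of Nptxr are shown because a read that crosses them can tell the 2 genes apart. Reads within bases that only 1 of the genes holds can do so too. Each line holds 40 coding bases before the junction in lower case and the 40 shared bases after it, at chr15:79794436-79794475, in capitals. The lower-case bases are from chr15:79803975-79804014 in Nptxr, chr15:79833512-79833551 in Npcd isoform 1 and chr15:79828688-79828727 in Npcd isoform 2, all on the minus strand.
Nptxr: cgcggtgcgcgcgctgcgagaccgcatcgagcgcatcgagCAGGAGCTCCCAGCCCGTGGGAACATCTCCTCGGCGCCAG
Npcd isoform 1: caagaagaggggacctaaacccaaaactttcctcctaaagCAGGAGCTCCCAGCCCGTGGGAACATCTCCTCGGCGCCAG
Npcd isoform 2: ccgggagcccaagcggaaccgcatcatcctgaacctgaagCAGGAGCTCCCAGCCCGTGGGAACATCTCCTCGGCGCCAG
Upstream of the junction the 735 bases of exon 1 belong to Nptxr and not to Npcd. Downstream of it Npcd carries 890 of the 4948 bases of the Nptxr transcript in the GENCODE models, or 18%, and 843 of 4899 windows of 50 bases, or 17.2%, were shared.

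The deposited tables point to a longer Npcd than the GENCODE models. They give Npcd a length of 4600 to 4611.77 bases, whereas the GENCODE models of its isoforms hold 1162 and 1453 bases. Stretching those models to the RefSeq span of the gene gives 4582 and 4873 bases. Models stretched in this way carry 4213 bases of Nptxr, or 85.1%, and leave its exon 1 as the bases that are its own. The RefSeq exons themselves were not used here, so the larger share rests on the length and the span alone.

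**Figure D1:**
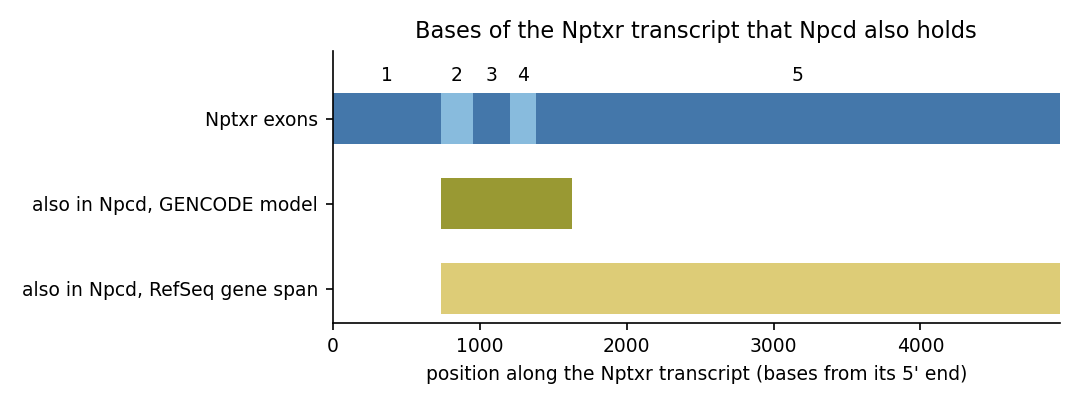
Bases of the Nptxr transcript also held by Npcd, by position in bases from the 5′ end of the transcript. The top track shows the 5 exons of Nptxr, the middle track the 890 bases shared with the GENCODE models of Npcd, and the bottom track the 4213 bases shared if Npcd extends over its RefSeq span, which leaves the 735 bases of exon 1 unshared.

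The receptor gene Nptxr stood lower in every isolated library than in any control. It was measured at 560, 560 and 606 CPM in controls 1 to 3 and at 487, 442 and 416 CPM in isolated 1 to 3. The groups do not overlap, and the lowest control lay above the highest isolated library. Controls averaged 575 ± 26.7 CPM against 448 ± 35.9 CPM after isolation (SD, n = 3), which is a ratio of 0.78 and -0.36 on the log2 scale (SE 0.07). This is the contrast that chose the gene, so its place in the background is description only. Of 15169 genes tested, 4.73% lay lower in isolated libraries without overlap and 4.12% higher, and 50.8% had a log2 difference below 0 and 49.2% above it. Among the members 1 of 3 lay lower without overlap and 0 of 3 higher. Without control 2 and isolated 3, the libraries with the most striatal signal, the log2 value was -0.33. Several marker lists moved beside it. All 15 striatal markers had lower means (median -0.414), with overlapping groups. The astrocyte and vascular lists lay lower in all isolated libraries, all 10 oligodendrocyte markers had higher means, and 7 of 8 upper-layer neuron markers had lower means (median -0.204). Among the last, Rorb (-0.46 in log2, SE 0.14) and Cux1 (-0.29, SE 0.09) lay lower without overlap, as Nptxr did. The part of these cell types in the Nptxr value was not tested. The spread of Nptxr was larger than counting error, with a coefficient of variation of 4.64% in control and 8.01% in isolated libraries against 0.973% and 1.1% from counting alone.

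Nptx1, a secreted member, lay at 634, 458 and 555 CPM in the controls and at 562, 606 and 559 CPM in the isolated libraries. The isolated values fall inside the range of the controls, so the groups overlap. Controls averaged 549 ± 88.6 CPM against 576 ± 26.1 CPM after isolation (SD, n = 3), or 0.07 on the log2 scale (SE 0.11). The value was -0.05 without control 2, the lowest library, and 0.19 without control 1, the highest. Control 2 also held the highest striatal marker level. The part of tissue composition in the Nptx1 value was not tested.

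Nptx2, the activity-induced secreted member, lay at 50.3, 59.8 and 62.8 CPM in the controls and at 70.1, 56.1 and 49.6 CPM in the isolated libraries. Both the highest and the lowest value were isolated libraries. Controls averaged 57.7 ± 6.56 CPM against 58.6 ± 10.4 CPM after isolation (SD, n = 3), or 0.02 on the log2 scale (SE 0.14). The value was -0.12 without isolated 1, -0.07 without control 1 and 0.13 without isolated 3, so its direction changed with single libraries. Counts of 930 to 1291 per library gave a counting error near 3.08% in control and 3.04% in isolated libraries, below the observed 11.4% and 17.8%.

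**Figure D2:**
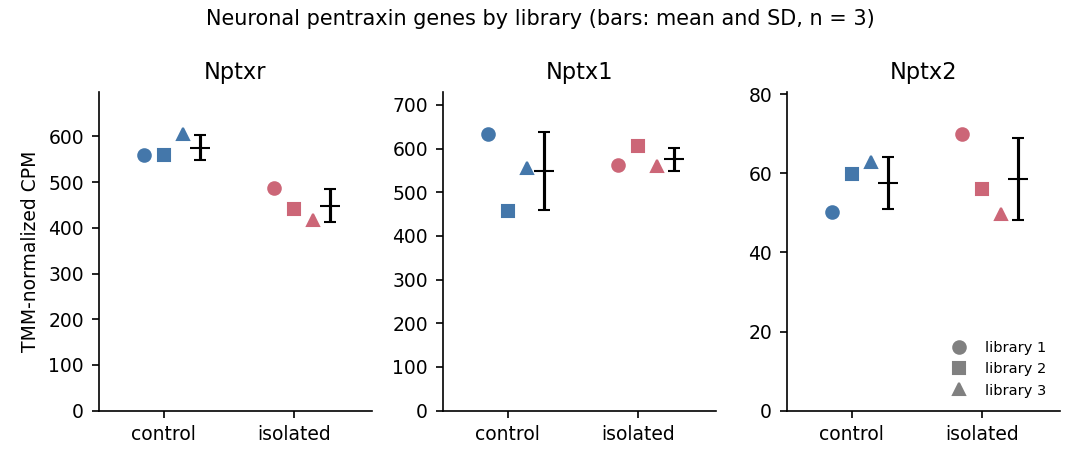
TMM-normalized CPM of Nptxr, Nptx1 and Nptx2 in the 3 control (blue) and 3 isolated (red) libraries, with the symbol giving the library number and the black bars the mean and SD. For Nptxr the isolated libraries (416 to 487 CPM) sit below the controls (560 to 606 CPM), whereas the groups overlap for Nptx1 and Nptx2.

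Because Npcd shares exons with Nptxr, its reads were set beside those of the receptor gene. Npcd was more abundant than Nptxr in the deposited tables, at 649, 814 and 904 CPM in the controls and 921, 875 and 505 CPM in the isolated libraries. Isolated 3 and control 1 were its lowest libraries, and the groups overlap. Controls averaged 789 ± 129 CPM against 767 ± 228 CPM after isolation (SD, n = 3), or -0.04 on the log2 scale (SE 0.22). Its coefficients of variation, 16.4% and 29.7%, were the larger of the pair, since those of Nptxr were 4.64% and 8.01%.

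The way the counting divided the reads between both genes varied between libraries. Nptxr received 46.3%, 40.7% and 40.1% of their summed counts in controls 1 to 3 and 34.6%, 33.6% and 45.2% in isolated 1 to 3. The share was 42.4 ± 3.4% in control and 37.8 ± 6.43% in isolated libraries (SD, n = 3), and the groups overlap because isolated 3 lies with the controls.

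Counted as 1 gene, Nptxr and Npcd stood at 1209, 1374 and 1510 CPM in the controls and 1409, 1316 and 922 CPM in the isolated libraries. The groups then overlap: isolated 1 lies above controls 1 and 2, and isolated 3 lies below all other libraries. Controls averaged 1365 ± 151 CPM against 1216 ± 259 CPM after isolation (SD, n = 3), or -0.17 on the log2 scale (SE 0.16), beside -0.36 for Nptxr alone. The combined value was -0.0032 without isolated 3, -0.09 without control 3 and -0.29 without isolated 1, and 0.003 without both control 2 and isolated 3. Cbx6, which gives Npcd its first exons, lay at 620, 597 and 601 CPM in the controls and 590, 558 and 526 CPM in the isolated libraries. These groups do not overlap either, at -0.12 on the log2 scale (SE 0.06, edgeR adjusted p = 0.999 over all genes). Whether the lower Nptxr count reflects fewer transcripts or another division of shared reads was not tested.

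**Figure D3:**
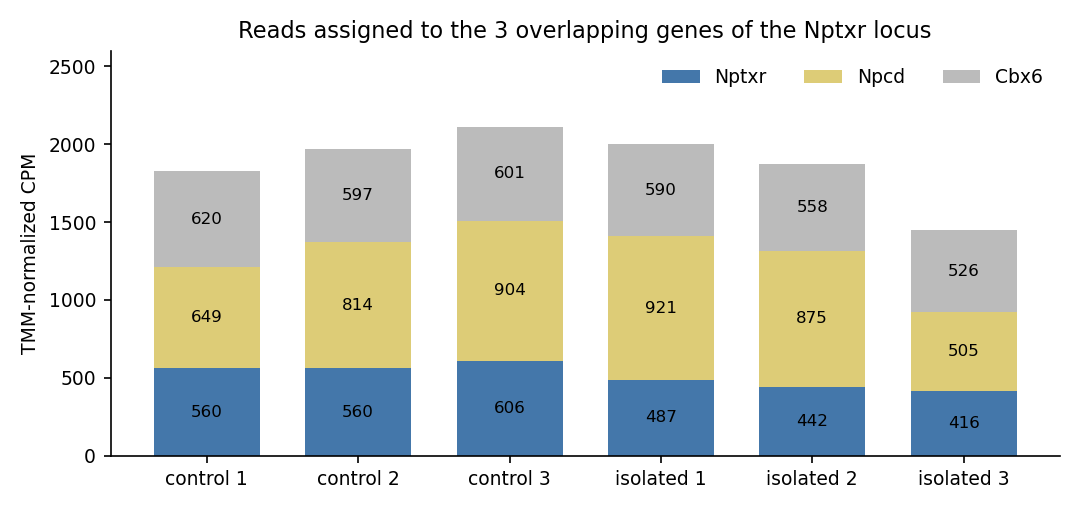
TMM-normalized CPM assigned to Nptxr (blue), Npcd (yellow) and Cbx6 (grey) in each library, stacked. Nptxr is smaller in the isolated libraries. The sum of Nptxr and Npcd overlaps between groups, at 1209 to 1510 CPM in controls and 922 to 1409 CPM in isolated libraries. The lowest column is isolated 3.

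Levels of different genes were compared per base of length, with the deposited FPKM (expected counts scaled to gene length and library size). Nptxr stood at 112, 113 and 120 FPKM in the controls and 96.5, 88.3 and 84.2 FPKM in the isolated libraries. Nptx1 stood at 119, 86.7 and 103 FPKM in the controls and 105, 114 and 106 FPKM in the isolated libraries. Both ranked among the more abundant transcripts, between place 460 and 743 of 19943 genes. Nptx2 was the scarcest member at 19.7, 23.7 and 24.4 FPKM in the controls and 27.2, 22 and 19.7 FPKM in the isolated libraries, between place 2790 and 3870.

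Over the 6 libraries Nptx1 was 4.65-fold and Nptxr 4.48-fold above Nptx2, each higher in 6 of 6 libraries. With the FPKM of Npcd added, the receptor locus was 11.8-fold above Nptx2. Nptx1 against Nptx2 had p = 0.03125 in an exact two-sided sign-flip permutation test over libraries. That p is the smallest that 6 libraries allow, and was 0.0469 when adjusted over the 3 pairs of members. For Nptxr and Nptx1 the order changed between libraries: their mean log2 ratio was -0.05 with an SD of 0.3, and Nptxr was higher in 2 of 6 libraries. The log2 ratio of Nptxr to Nptx1 was -0.09, 0.38 and 0.22 in controls 1 to 3 and -0.12, -0.37 and -0.34 in isolated 1 to 3, so the isolated libraries were all below the controls. These ratios, and so their mean and SD, contain the contrast that chose Nptxr, as do those of Nptxr to Nptx2. No p-value is given for either pair with Nptxr. With the FPKM of Npcd added, the receptor locus stood above Nptx1 in 6 of 6 libraries by a log2 ratio of 1.34, so the order of those members depends on how Npcd is counted.

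The AMPA receptor subunits, the targets of pentraxin clustering, lay close to their control levels. Of Gria1 to Gria4, 1 was higher, 3 were lower and 0 were called at an adjusted p under 0.05. Among all 15169 tested genes that threshold called 0% in either direction. At an unadjusted p under 0.05 edgeR found 231 genes higher (1.52%) and 304 lower (2%), and 0 of the 4 subunits were among them. DESeq2 called 1 gene, Fkbp5, which is no pentraxin gene, and limma-voom called 0. Gria2, the subunit that keeps most AMPA receptors impermeable to calcium, was the most abundant and averaged 716 ± 52.4 CPM in controls against 680 ± 5.01 CPM after isolation (-0.07 in log2, SE 0.07). Gria1 was at 398 ± 47.1 and 410 ± 22.4 CPM (0.04, SE 0.09), Gria3 at 351 ± 41.2 and 342 ± 23.1 CPM (-0.04, SE 0.09), and Gria4, a subunit prominent in parvalbumin interneurons, at 122 ± 12.8 and 120 ± 10.1 CPM (-0.02, SE 0.09), each with SD over n = 3 libraries.

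Auxiliary subunits of AMPA receptors, which steer their transport and gating, were higher in 6 and lower in 7 of 13 genes, with a median log2 difference of -0.015 beside -0.0018 over all tested genes. None of the 13 had an unadjusted p under 0.05 with edgeR. The cornichon gene Cnih2 was at 175 ± 19.8 and 170 ± 18.6 CPM, and the TARP gene Cacng3 at 135 ± 15.6 and 134 ± 21.1 CPM. Cacng7 stood at 69.2 ± 6.63 and 65.4 ± 2.97 CPM and Cacng8 at 54 ± 1.69 and 54.7 ± 1.87 CPM.

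The ADAM17 gene, Adam17, averaged 15.9 ± 0.915 CPM in controls against 15.5 ± 0.644 CPM after isolation (-0.04 in log2, SE 0.08). Rcn2, which encodes a calcium-binding protein that binds neuronal pentraxins, was at 80.8 ± 3.94 and 79.1 ± 2.98 CPM (-0.03, SE 0.06). Other pentraxins were close to absent. Of 7 genes listed, Svep1, a large protein with a pentraxin domain, passed the filter at 1.41 ± 0.463 and 1.14 ± 0.48 CPM, and the long pentraxin Ptx3 had at most 4 counts in a library.

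Secreted proteins of the C1q family act as synaptic organizers in a way that resembles the pentraxins. Of 11 such genes and receptors 9 were tested, 6 higher and 3 lower, with 0 at an unadjusted p under 0.05 and a median log2 difference of 0.04. C1ql3, the most abundant ligand, was at 118, 136 and 210 CPM in the controls and 185, 199 and 97 CPM in the isolated libraries. It was lowest in control 1 and isolated 3, the same libraries in which Npcd was lowest. The receptor genes Adgrb3 (112 ± 10.9 and 111 ± 2.53 CPM) and Grid1 (63 ± 6.32 and 63.6 ± 4.94 CPM) differed by less than their spread. All 3 chains of complement C1q, which is made by microglia, had lower means. C1qa was at 33.9 ± 2.95 and 31.1 ± 1.21 CPM (-0.125 in log2, SE 0.08). It lay lower without overlap, as did 4.73% of all tested genes. C1qb (-0.01, SE 0.09) and C1qc (-0.08, SE 0.08) overlapped between the groups.

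Markers of the cells that make or receive pentraxins differed by class. Of 8 excitatory neuron markers 4 were higher and 4 lower, with a median of 0.001 in log2, and Slc17a7 stood at 1790 ± 212 and 1795 ± 196 CPM. Of 8 genes listed for parvalbumin interneurons 2 were higher and 6 lower (median -0.04). Pvalb averaged 48.7 ± 15.8 and 45.6 ± 4.11 CPM, and Gad1, a GABA-synthesis enzyme gene, 356 ± 39.1 and 347 ± 46.3 CPM. Not every listed gene is specific to these cells. The libraries with the most striatal signal, control 2 and isolated 3, also held the most Gad2 (277 and 262 CPM). Elsewhere Gad2 lay between 175 and 190 CPM. The count and median therefore do not describe parvalbumin interneurons alone. Genes of the perineuronal net, the matrix in which Nptx2 gathers around these interneurons, were higher in 3 and lower in 4 of 7 (median -0.05). None of the genes in these 3 lists had an unadjusted p under 0.05 with edgeR, although single excitatory markers went both ways (Neurod6 0.27, SE 0.19). Markers of cortical layers gave more. Of 8 upper-layer markers 3 were lower at an unadjusted p under 0.05 (Cux1, Rorb and Calb1) beside a background of 2%, and of 10 deep-layer markers 4 were higher (Fezf2, Etv1, Crym and Npr3) beside 1.52%. The deep-layer list also holds genes that were highest in the libraries with the most striatal signal, control 2 and isolated 3. Bcl11b was at 198 and 148 CPM there and at 82.3 to 92.8 CPM elsewhere. Foxp2 was at 34.6 and 37.9 CPM there and at 16.5 to 23.4 CPM elsewhere. Fezf2, Etv1, Crym and Npr3 were highest in other libraries. The adjusted threshold called 0 genes of either layer list with edgeR. Both lists were chosen with earlier results of these data known, so their counts are description only. The pan-neuronal markers had a median of 0.01 over 8 genes, but RNA levels in bulk tissue do not measure the number of neurons.

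Nptx2 is usually counted among the activity-induced genes, and the others of that class are set beside it here. Of 18 such genes 16 were lower and 2 higher in isolated libraries, with a median log2 difference of -0.41. With edgeR 4 of them were lower at an unadjusted p under 0.05 (Fos, Egr2, Nr4a2 and Btg2), or 4 of 18 beside a background of 2%, and 0 passed at the adjusted threshold. This list too was chosen with earlier results of these data known, so the count is description only. The list was highest in control 1, at a sum of 2209 CPM against 1134 to 1505 CPM in the other libraries. Nptx2 was at 50.3 CPM in control 1, its lowest control. The immediate early gene Arc was at 510, 168 and 71.1 CPM in the controls and 73.6, 76.5 and 144 CPM in the isolated libraries, so it was highest where Nptx2 was lowest among the controls. Bdnf, which encodes a neurotrophin, was at 26.5 ± 1.71 and 25.4 ± 8.46 CPM. Among the isolated libraries it was highest in isolated 1 (33.1 CPM) and lowest in isolated 3 (16.3 CPM), as was Nptx2. Among the controls Bdnf was at 26.5, 24.7 and 28.1 CPM, lowest in control 2, whereas Nptx2 was lowest in control 1. Bdnf was named after its values were seen.

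**Figure D4:**
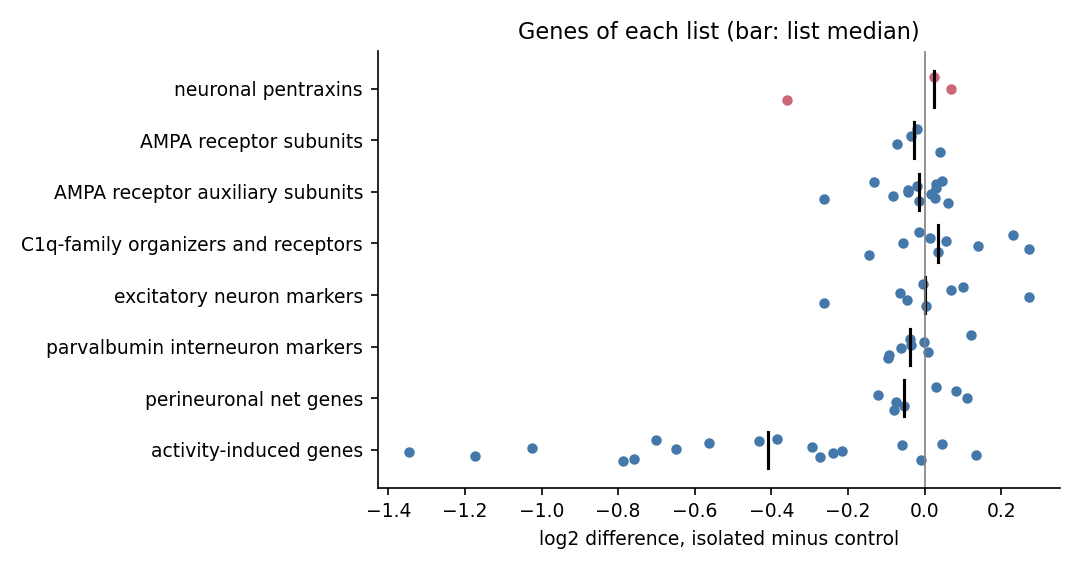
Log2 difference (isolated minus control, edgeR, 3 libraries each) of every tested gene in the pentraxin family (red) and in 7 partner lists (blue), with a bar at each list's median. Nptxr, which this contrast chose, is at -0.36 with its own counts. The value with Npcd counted in, -0.17 (SE 0.16), is not drawn here. The AMPA receptor subunits are at -0.07 to 0.04. Of the lists shown, the activity-induced genes have the lowest median (-0.41).

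The pattern over the 6 libraries was compared with that of 10007 genes with a mean of at least 10 CPM, by Pearson's r of log2 CPM. This is a description over 6 points that share depth and tissue composition, and among so many genes high values are easily found. For Nptxr these r values also contain the contrast that chose the gene. Nearest to Nptxr were Rpgrip1l (r = 0.99), Grin2b (0.98), Phax (0.97), Cox8a (0.97) and Syncrip (0.97). None of them was among the 5 nearest to Nptxr with the group means removed. Grin2b encodes a subunit of the NMDA receptor, the other main synaptic glutamate receptor. Among the 5 nearest to Nptx1 were Slc29a2, Cables1, Gpx4 and Mapk8ip2 (r between 0.98 and 1), and nearest to Nptx2 were Ddr2, Glrx2, Dync1li1, Reep2 and Snrpd1 (r between 0.97 and 0.99). With the group means removed, the nearest genes were Kbtbd4, Pex5, Pomgnt1, Ppa2 and Fech for Nptxr, Slc29a2, Tssc4, Pigz, Daglb and Cgrrf1 for Nptx1, and Polr2j, 2810025M15Rik, Smad3, Strap and Prkaca for Nptx2 (r from 0.99 to 1). No gene appears in the lists of more than 1 member, and no member appears in the list of another. Lists of 5 genes do not show how alike the members are. With the group means removed, r was 0.91 between Nptxr and Nptx2, 0.03 between Nptxr and Nptx1 and -0.38 between Nptx1 and Nptx2. Over the 6 libraries the same pairs were at 0.31, -0.24 and -0.36.

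**Figure D5:**
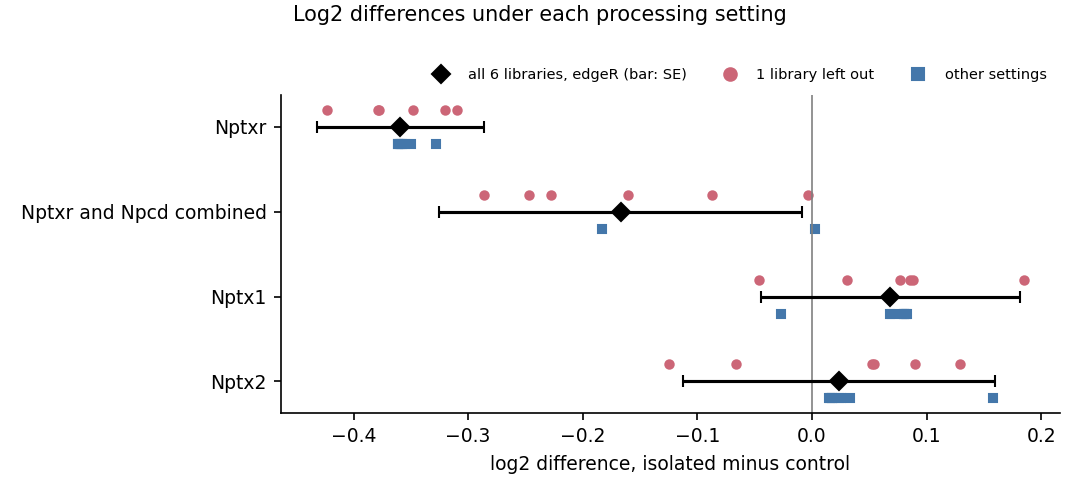
Log2 difference (isolated minus control) of Nptxr, of Nptxr and Npcd counted together, of Nptx1 and of Nptx2. The black diamond is edgeR on all 6 libraries with its standard error, red points leave out 1 library each, and blue squares are the other settings. Nptxr stays between -0.42 and -0.31 with its own counts, whereas the combined value reaches 0 without isolated 3, and those of Nptx1 and Nptx2 lie on both sides of 0.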

How the data were processed

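RNA of 6 libraries was read in 50-base reads on a BGISEQ-500, per the labels' protocols. For every library the authors deposited gene-wise expected counts together with FPKM and gene lengths. The submitters' processing notes list HISAT, Bowtie2, RSEM and the build mm10, with no settings, and no source used here says whether strand was counted. Gene symbols had turned into dates for 26 genes in 1 deposited library file. A series-wide table of 6 FPKM columns was not used, since no label gives its column codes. The 1 entry per table without a gene held at most 0.000947% of reads and was left out.

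Expected counts were rounded and tested with edgeR 4.0.16 (R 4.3.3): filterByExpr (minimum count 10, total 15; 15169 genes kept, 4774 removed), TMM factors of 0.991 to 1.01, quasi-likelihood F-test without covariates, Benjamini-Hochberg adjustment over all tested genes at 0.05. Standard errors derive from the fold change and F statistic. The fit was tested on simulated data. Alternatives used DESeq2 1.42.0, limma 3.58.1, other scalings and filters, log2(FPKM + 1) and log2(FPKM + 0.1), left-out libraries, and the counts of Npcd and Cbx6 added to Nptxr. No 2 libraries matched within counting noise (chi-square per gene of at least 2.9). Symbols came from RefSeq by gene ID (19899 of 19943 matched), sequences from GENCODE M21 through Biopython 1.88.

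The members and gene lists were chosen with earlier results of these data known. Named are the members, Npcd, Cbx6, every AMPA receptor subunit, the sheddase and binding partner, up to 4 of the most abundant genes or those with an unadjusted p under 0.05 in other lists, and the 5 genes most like each member, of which 1 is not reported here. Ptx3, Bdnf and Fkbp5 lie outside that rule and were named after their values were seen.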

Additional observations from a re-analysis of the deposited data

How the results depend on the processing

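With its own counts Nptxr lay lower in isolated libraries in every setting run. Its log2 difference of -0.36 lay between -0.42 and -0.31 when 1 library was left out, and was -0.33 without control 2 and isolated 3. It was -0.17 with the counts of Npcd added and -0.15 with those of Npcd and Cbx6 added. Combining Nptxr and Npcd was planned, and leaving out libraries from the combined counts was chosen after seeing the data: the value then ranged from -0.29 to -0.0032, and from -0.25 to -0.03 with Cbx6 included. Without control 2 and isolated 3 it was 0.003, the 1 setting in which the combined direction changed. Nptx1 ranged from -0.05 to 0.19 and Nptx2 from -0.12 to 0.13 when 1 library was left out, so both changed direction. The log2 ratio of Nptxr to Nptx1 changed from -0.05 to 1.34 when the FPKM of Npcd was added, and that of Nptxr to Nptx2 from 2.16 to 3.56. The number of genes called was 0 in every setting (0 to 0 with 1 library left out) except DESeq2, which called 1, Fkbp5 (adjusted p = 0.0068). The causes of these changes were not tested, except that added counts by construction hold more reads. Same-numbered libraries did not deviate together (r = 0.03, -0.27 and -0.49 over genes), so the numbers were not taken to pair them. With the replicate number as a block the log2 difference was -0.36 for Nptxr, 0.08 for Nptx1 and 0.02 for Nptx2, and 0 genes were called. Counting error does not include the division of reads with Npcd, and 3 libraries per group limit the precision.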
